A study of Bos taurus with 27 samples.

Results

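Fatty acid oxidation genes were followed in colon tissue of newborn calves, from the entry of long-chain fatty acids into mitochondria to the transfer of their electrons to the respiratory chain. The list held 9 symbols, and 7 of them (CPT1A, CPT2, ACADVL, HADHA, HADHB, ACAA2 and ETFDH) could be paired with a single Ensembl identifier of the 24616 in the count table. For ACADM and ACADS no table used here pairs the symbol with an identifier, and these 2 genes, the dehydrogenases of medium-chain and short-chain fatty acids, were not analysed here. No enzyme of ketone body synthesis is among the 7 genes. RNA was sequenced from 27 male Holstein calves killed at 51 h of age, 9 in each of 3 treatments. The first meal, pooled pasteurized colostrum given by tube, came immediately after birth (0 h, TRT0), at 6 h (TRT6) or at 12 h (TRT12). Milk replacer followed in all calves from 12 h after that meal, every 6 h. Its start and the time since colostrum at 51 h thus moved with the treatment. A delay of colostrum cannot be told apart from a later start of milk replacer. In each treatment 4 calves came from primiparous heifers (H) and 5 from multiparous cows (C), giving 6 groups from TRT0_H to TRT12_C. The libraries were made from whole colon tissue, and each calf gave 1 library. The comparisons ask whether the delay of the first colostrum meal, or the parity of the dam, was accompanied by another level of these genes.

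Mitochondrial beta-oxidation shortens fatty acids step by step and yields acetyl-CoA, NADH and reduced flavoproteins. Long-chain fatty acids enter only as carnitine esters, whereas butyrate, which colonic bacteria produce and which colon epithelial cells burn as a main fuel, enters without carnitine. In the newborn, milk fat makes beta-oxidation a large source of energy, and acetyl-CoA from it can be turned into ketone bodies.

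Gene counts summed to between 1163791 and 4202593 per calf, and levels are given as CPM, the count of a gene relative to that sum and scaled to the same total in each calf. These sums are far below the number of reads per sample that the paper reports, and the reason was not tested. Counting errors given below refer to the deposited counts. No pair of calves had identical counts. The 9 epithelial marker genes with an identifier were detected in every calf, with a summed level of 2339 to 4086 CPM, and the 7 smooth muscle markers summed to at least 6931 CPM in every calf, so markers of mucosa and of muscle were both present. In such bulk tissue, fewer cells of a type and less RNA per cell cannot be told apart. The library names carry 3 different run fields, called lanes 1, 2 and 3 here, of 11, 11 and 5 calves, and the groups were spread unevenly over them, with no TRT0_C calf in lane 1 and no TRT12_C calf in lane 3.

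All 7 genes were expressed in every calf, with 40 counts or more. CPT1A (ENSBTAG00000021999), the carnitine palmitoyltransferase of the outer membrane that commits fatty acids to oxidation, had a level of 102 ± 12.3 CPM (SD, n = 27). CPT2 (ENSBTAG00000014649), its partner at the inner membrane, had a level of 49.5 ± 6.04 CPM. These 2 genes make up the carnitine shuttle among the members, and their highest calf exceeded the lowest by 1.78 times for CPT1A and by 1.57 times for CPT2.

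Within the oxidation spiral, ACADVL (ENSBTAG00000003072), the very-long-chain acyl-CoA dehydrogenase, had a level of 127 ± 15.6 CPM (SD, n = 27). HADHA (ENSBTAG00000015038) and HADHB (ENSBTAG00000010083), the alpha and beta subunits of the mitochondrial trifunctional protein, had levels of 142 ± 17.0 and 101 ± 16.5 CPM. ACAA2 (ENSBTAG00000002863), the thiolase that acts on shorter chains, had a level of 101 ± 11.6 CPM. ETFDH (ENSBTAG00000016679), which passes electrons from the flavoprotein ETF to ubiquinone, had a level of 36.3 ± 5.38 CPM. CPM values are not divided by gene length, so they do not rank the genes against each other.

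The spread between calves was small for each of the 7 genes. The SD came to between 11.6% of the mean for ACAA2 and 16.3% for HADHB, while counting error alone would give 6.01% for HADHA to 11.9% for ETFDH. ETFDH and CPT2, the genes with the fewest counts, had the largest counting error, with an SD of 14.8% against 11.9% and of 12.2% against 10.2%. For these 2 genes the spread between calves was thus only slightly larger than the counting error.

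**Figure D1:**
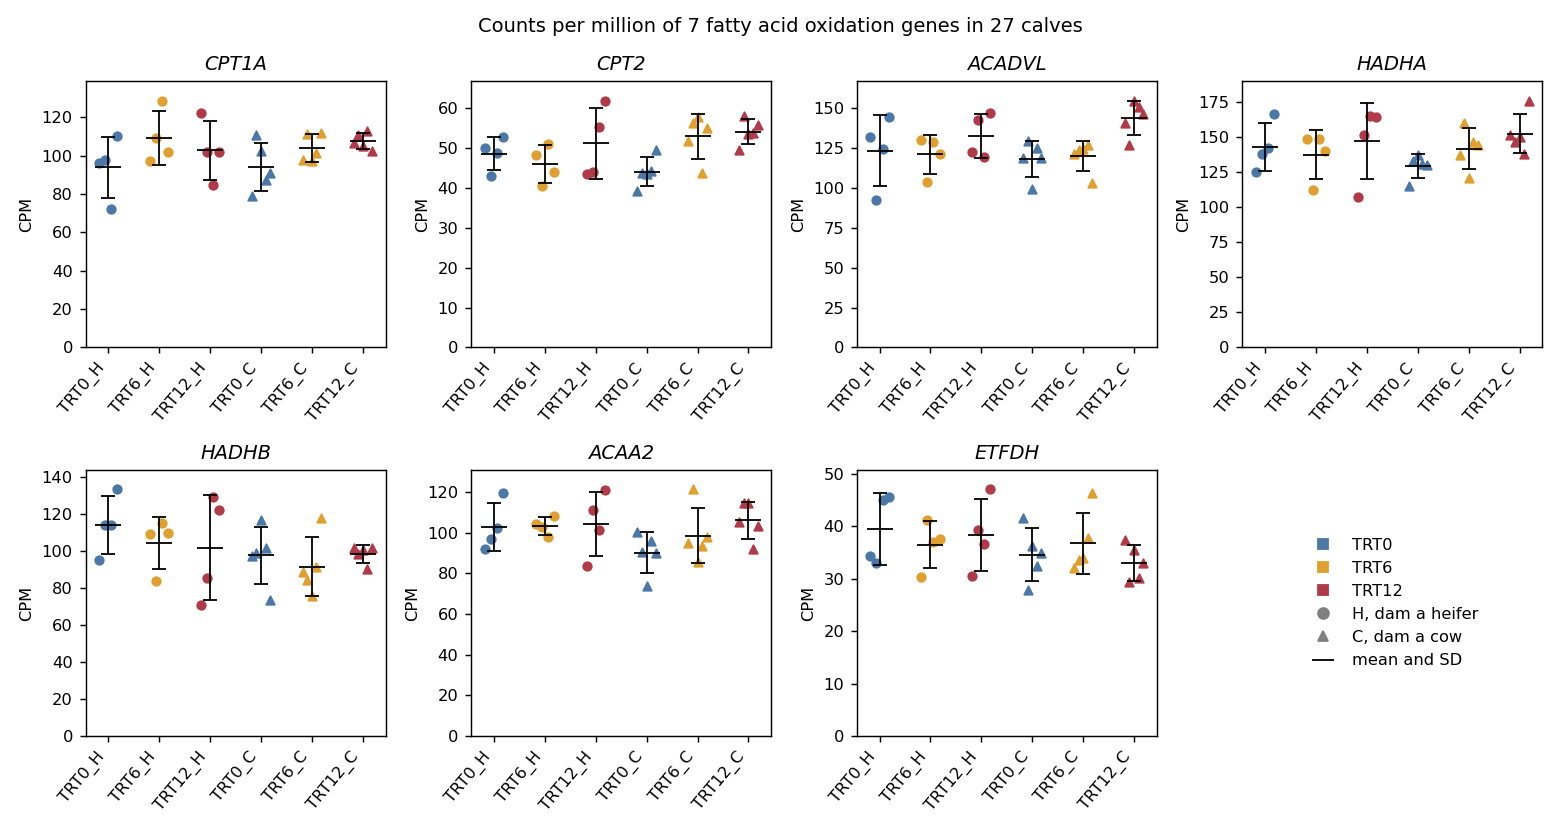
Level of each of the 7 genes in CPM (vertical axis, from 0) in every calf, by treatment and dam parity (horizontal axis), with circles for H calves, triangles for C calves and black bars for the group mean and SD. The ranges of most groups overlap, and ACADVL has its highest group mean in TRT12_C at 144 CPM against 118 in TRT0_C.

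No gene of the list differed between treatments or parities after correction. Contrasts were tested with edgeR's quasi-likelihood test across 13943 genes, 4 of them overall (treatment adjusted for parity, and parity adjusted for treatment) and 9 within a parity or a treatment, and a gene was called at an adjusted p of at most 0.10 and a fold change of at least 1.2. In each of the 13 contrasts 0 of 7 genes was called, beside 0% of all genes tested. edgeR's likelihood ratio test also called 0 of the 7 genes in each contrast, and so did DESeq2 in 12 of the 13. In TRT12 vs. TRT0 DESeq2 called 51 of all genes but gave none of the 7 genes an adjusted p, so it could not call them there. Of the 91 pairs of a gene and a contrast, 9 had an unadjusted p under 0.05, and in all 9 the level was higher in the calves fed later. Of all 13943 genes, between 251 (TRT12_H vs. TRT6_H) and 1376 (TRT12_C vs. TRT0_C) per contrast were past it. In TRT12 vs. TRT0 723 of the 1307 genes past it were higher, and in TRT12_C vs. TRT0_C 703 of the 1376. Contrasts that share a group share its calves, and the 7 genes varied together across calves in the scaling of these tests, as given below. These 9 pairs are thus not separate pieces of evidence. Nor are the 7 genes separate draws where a count of them is set beside a share over all genes.

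In the overall contrast TRT12 vs. TRT0, ACADVL ranged from 92.3 over a median of 124 to 145 CPM in TRT0 and from 119 over 142 to 155 CPM in TRT12. The treatments overlapped over much of this range. The log2 fold change of ACADVL was 0.23 with a SE of 0.087, an unadjusted p of 0.0119 and an adjusted p of 0.434 in edgeR. It was the member with the largest difference in this contrast, and its sign held when any single calf was left out, with a log2 fold change of 0.20 to 0.28. CPT2 ranged from 39.2 over 44.3 to 52.8 CPM in TRT0 and from 43.4 over 53.6 to 61.8 CPM in TRT12, also with overlap. Its log2 fold change was 0.23 with a SE of 0.11 (edgeR unadjusted p = 0.0405, adjusted p = 0.509).

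These were 2 of the 7 genes past an unadjusted p of 0.05 in TRT12 vs. TRT0, both higher, where 5.19% of all genes tested were past it and higher. That number was 1 with lane as a covariate, beside 1382 of the 13943 genes tested past it in either direction. It was 1 to 4 when any single calf was left out, with 4 without TRT12 replicate 1. CPT2 kept an unadjusted p under 0.05 in 18 of these 27 fits. The fits that left out a TRT6 calf kept both groups whole. The log2 fold changes of the remaining 5 genes were 0.18 for CPT1A, 0.18 for HADHA, 0.17 for ACAA2, -0.03 for ETFDH and -0.04 for HADHB. The median over the 7 genes was 0.18, beside -0.0039 over all genes tested. Both genes of the carnitine shuttle and the spiral genes ACADVL, HADHA and ACAA2 thus lay above 0, and HADHB and ETFDH lay near it. In the same contrast all 9 epithelial markers lay above 0 with a median of 0.21, 3 of them with an unadjusted p under 0.05 and none called by edgeR. All 3 goblet, 1 of 7 smooth muscle and 1 of 2 immune markers were above 0 too. The fibroblast, endothelial, neuronal and glial and adipocyte markers were all below 0. The part of the markers' cell types in these values was not tested.

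In TRT6 vs. TRT0 none of the 7 genes passed an unadjusted p of 0.05, where 3.14% of all genes tested did. CPT1A had the largest difference there, with 72.1 over 96.0 to 111 CPM in TRT0 and 97.0 over 102 to 129 CPM in TRT6. Its log2 fold change was 0.20 with a SE of 0.098 (edgeR unadjusted p = 0.0507, adjusted p = 0.99998). In TRT12 vs. TRT6, ACADVL ranged from 103 over 124 to 129.999 CPM in TRT6, and its log2 fold change to TRT12 was 0.20 with a SE of 0.087 (edgeR unadjusted p = 0.0315, adjusted p = 0.99972). It was the 1 of 7 genes past an unadjusted p of 0.05 and higher in that contrast, beside 1.49% of all genes tested. The mean level of ACADVL was 120.5 CPM in both TRT0 and TRT6, and 139 CPM in TRT12.

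The largest log2 fold changes were those among the calves of multiparous cows. For ACADVL the 5 TRT0_C calves had 99.1, 119, 119, 125 and 129 CPM, and the 5 TRT12_C calves had 127, 141, 147, 151 and 155 CPM. Only the lowest TRT12_C calf lay below the highest TRT0_C calf. The log2 fold change in TRT12_C vs. TRT0_C was 0.36 with a SE of 0.12 and a 95% interval of 0.12 to 0.60 (edgeR unadjusted p = 0.00398, adjusted p = 0.427).

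For CPT2 the TRT0_C calves had 39.2, 43.5, 43.7, 44.3 and 49.37 CPM, and the TRT12_C calves had 49.40, 53.5, 53.6, 55.7 and 57.8 CPM. The groups did not overlap in CPM, but the gap between the nearest calves was smaller than 1 read. The log2 fold change was 0.38 with a SE of 0.14 and a 95% interval of 0.089 to 0.67 (edgeR unadjusted p = 0.0120, adjusted p = 0.441).

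For HADHA, the subunit that hydrates and dehydrogenates long-chain intermediates, the TRT0_C calves had 115, 130.1, 131, 133 and 137 CPM, and the TRT12_C calves had 138, 147, 150.2, 152 and 176 CPM. These groups did not overlap in CPM either, but the nearest calves were close, at 137.4 and 138.0 CPM. The log2 fold change was 0.32 with a SE of 0.15 and a 95% interval of 0.00013 to 0.63 (edgeR unadjusted p = 0.0499, adjusted p = 0.506). An unadjusted p under 0.05 remained in 9 of the 27 fits that leave out 1 calf, although most of these fits keep both groups whole. HADHA and CPT2 were the 2 of 7 genes without overlap, beside 0.689% of all genes tested that were higher in TRT12_C without overlap. Once each library size was multiplied by its TMM factor (edgeR's correction, which sets the typical gene equal between calves), ACADVL was instead the 1 gene of the 7 without overlap, beside 1.23% of all genes tested.

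For ACAA2 the TRT0_C calves had 73.9, 90.04, 90.5, 96.1 and 100.3 CPM, and the TRT12_C calves had 92.2, 103, 105, 114 and 115 CPM. The lowest TRT12_C calf lay within the TRT0_C range and the other 4 lay above it. The log2 fold change was 0.32 with a SE of 0.15 (edgeR unadjusted p = 0.0402, adjusted p = 0.488). CPT1A had a log2 fold change of 0.27 with a SE of 0.13 (edgeR unadjusted p = 0.0531, adjusted p = 0.513), with levels of 78.8 to 111 CPM in TRT0_C and 103 to 113 CPM in TRT12_C. HADHB and ETFDH had log2 fold changes of 0.08 and -0.0049, each smaller than its SE of 0.19 and 0.17.

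When each of the 27 calves was left out in turn, the unadjusted p of TRT12_C vs. TRT0_C stayed under 0.05 in all 27 fits for ACADVL and for CPT2, and in 20 for ACAA2. In TRT12_C vs. TRT0_C, 4 of the 7 genes (ACADVL, CPT2, ACAA2 and HADHA) were thus past an unadjusted p of 0.05 and higher, beside 5.04% of all genes tested. The median log2 fold change was 0.32 over the 7 genes and -0.0062 over all genes tested. With library totals in place of TMM factors the median over the 7 genes was 0.23, that over all genes was -0.08, and 2 of the 7 genes kept an unadjusted p under 0.05. In either direction, 1221 of all genes tested were past it in that fit, against 1376 with TMM factors. Of the lanes, only lane 2 held calves of both groups, 3 of TRT0_C and 2 of TRT12_C. Within it the means were 124 against 148 CPM for ACADVL and 45.8 against 51.5 CPM for CPT2. They were 131 against 151 CPM for HADHA and 92.2 against 110.1 CPM for ACAA2. Each was higher in TRT12_C, but so were CPT1A (96.4 against 106 CPM), HADHB (91.4 against 101 CPM) and ETFDH (31.7 against 36.4 CPM). The 4 genes were picked by this contrast and the lane 2 calves are part of it, so lane 2 adds no separate support. With lane as a covariate, 3 of the 7 genes had an unadjusted p under 0.05 and none was called. In that fit 1842 of the 13943 genes tested were past it in either direction.

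Markers of cell types were read beside these values. The summed level of the 9 epithelial markers was 2427 to 3148 CPM in TRT0_C and 2972 to 3557 CPM in TRT12_C, and none of them was at 0 in any calf. In edgeR 8 of the 9 had a log2 fold change above 0, with a median of 0.36, 3 had an unadjusted p under 0.05 and none was called. The 3 goblet cell markers summed to 598 to 1073 CPM in TRT0_C and 991 to 1499 CPM in TRT12_C, with all 3 above 0 and 1 with an unadjusted p under 0.05. Above 0 were also 5 of 7 smooth muscle, 4 of 5 fibroblast, 2 of 2 endothelial and 2 of 2 neuronal and glial markers. So was the adipocyte marker, and of the 2 immune markers 1 was above 0. None of these other markers had an unadjusted p under 0.05. The part of the epithelial share in the differences of the fatty acid oxidation genes was not tested.

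In TRT6_C vs. TRT0_C, CPT2 was the 1 of 7 genes past an unadjusted p of 0.05 and higher, beside 0.983% of all genes tested. Its TRT6_C calves had 43.7, 51.6, 55.0, 56.2 and 57.6 CPM, with 4 of the 5 above every TRT0_C calf. The log2 fold change was 0.31 with a SE of 0.14 (edgeR unadjusted p = 0.0389, adjusted p = 0.99998). The unadjusted p of CPT2 was under 0.05 in 21 of the 27 fits that leave out 1 calf, but most of these fits keep both groups whole. Those where it was not include the fits without TRT0 replicates 1, 3 and 7, all TRT0_C calves. Among the other alternatives the unadjusted p of CPT2 was 0.0519 in DESeq2 and 0.0509 without the filter. It was 0.0543 in the likelihood ratio test and 0.104 with lane as a covariate. In TRT12_C vs. TRT6_C, ACADVL was the 1 of 7 genes past an unadjusted p of 0.05 and higher, beside 3.27% of all genes tested. Its TRT6_C calves had 103, 122, 124, 124 and 127 CPM, and the log2 fold change was 0.29 with a SE of 0.12 (edgeR unadjusted p = 0.0182, adjusted p = 0.738). The mean level of CPT2 among C calves was thus 44.0 CPM in TRT0, 52.8 in TRT6 and 54.0 in TRT12, whereas that of ACADVL was 118, 120.0 and 144 CPM.

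Among the calves of heifers the medians over the 7 genes lay near 0 in the same contrasts, with wide intervals for single genes. In TRT12_H vs. TRT0_H the log2 fold changes ran from -0.18 for HADHB to 0.07 for CPT1A, with a median of 0.015 over the 7 genes and 0.0033 over all genes tested. None of the 7 had an unadjusted p under 0.05, beside 3.56% of all genes tested. All 5 fibroblast markers were lower there with an unadjusted p under 0.05, with a median log2 fold change of -0.50. All smooth muscle, endothelial, neuronal and glial and adipocyte markers were lower too. Of the others, 6 of 9 epithelial, 3 of 3 goblet and 1 of 2 immune markers were higher. No marker was called by edgeR, and their part in these values was not tested. The 4 TRT0_H calves had 92.3, 124, 132 and 145 CPM of ACADVL, and the 4 TRT12_H calves had 119, 122, 142 and 147 CPM. For CPT2 the TRT0_H calves had 42.9, 48.7, 49.9 and 52.8 CPM, and the TRT12_H calves had 43.4, 44.0, 55.2 and 61.8 CPM. Both ranges overlapped widely, and the 95% interval of the log2 fold change was -0.19 to 0.33 for ACADVL and -0.27 to 0.37 for CPT2. In TRT6_H vs. TRT0_H the median was -0.04 and CPT1A had the largest value, 0.22 with a SE of 0.15, and in TRT12_H vs. TRT6_H the median was 0.04. None of the 7 genes had an unadjusted p under 0.05 in either, beside 3.34% and 1.8% of all genes tested.

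The difference between the parities was tested itself, as the interaction of treatment and parity. The unadjusted p of the 7 genes lay between 0.181 for CPT2 and 0.681 for ETFDH, and none was past 0.05, beside 2.66% of all genes tested. A treatment difference in C calves was therefore not shown to differ from that in H calves. The interaction called 1 gene of all tested (0.00717%), RGS2, a regulator of G protein signaling outside the list.

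**Figure D2:**
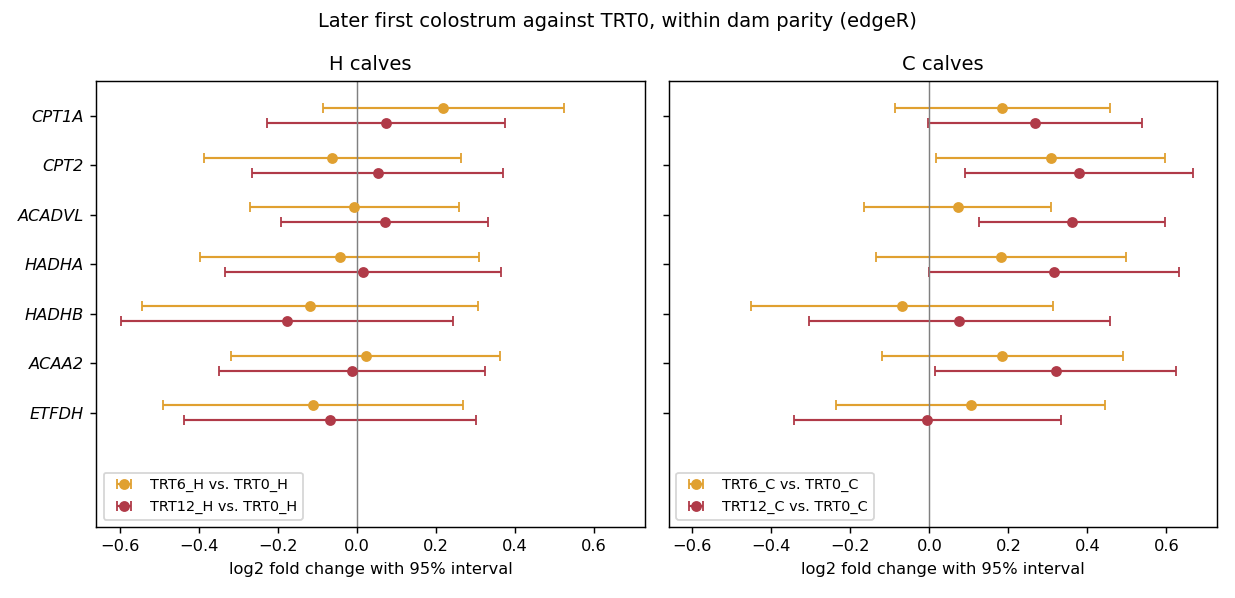
Log2 fold change of TRT6 and TRT12 against TRT0 (horizontal axis, points with 95% intervals from edgeR) for the 7 genes (vertical axis), in H calves on the left and C calves on the right. In C calves the TRT12 intervals of ACADVL, CPT2, HADHA and ACAA2 lie above 0, and in H calves all intervals include 0.

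In C vs. H all 7 genes had a log2 fold change below 0, where 48.8% of all genes tested were above 0. The values ran from -0.21 for HADHB to -0.0055 for CPT2, with a median of -0.06 and -0.0037 over all genes tested. HADHB, the largest, ranged from 73.8 over 98.4 to 118 CPM in C calves and from 70.7 over 112 to 133 CPM in H calves (SE 0.11, edgeR unadjusted p = 0.0737, adjusted p = 0.99972). ETFDH had a log2 fold change of -0.18 with a SE of 0.099 (edgeR unadjusted p = 0.0728). None of the 7 passed an unadjusted p of 0.05, beside 2.52% of all genes tested, and with library totals in place of TMM factors ACADVL, CPT2 and CPT1A lay just above 0.

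In TRT0_C vs. TRT0_H all 7 genes were below 0, from -0.31 for HADHB to -0.09 for CPT1A, where 49.3% of all genes tested were above 0. The median was -0.24, and none had an unadjusted p under 0.05, beside 2.52% of all genes tested. All smooth muscle, fibroblast, endothelial, neuronal and glial and adipocyte markers were lower there too. Of the others, 3 of 9 epithelial, 2 of 3 goblet and 1 of 2 immune markers were higher. No marker was called by edgeR, and their part in these values was not tested. This contrast and TRT12_C vs. TRT0_C share the 5 TRT0_C calves, so a low level in those calves enters both. Without TMM factors the median was -0.14 while that over all genes was 0.095, and CPT1A was then 0.0029. In TRT6_C vs. TRT6_H the median was -0.07, and in TRT12_C vs. TRT12_H it was 0.06, with none of the 7 genes past an unadjusted p of 0.05, beside 3.86% and 2.68% of all genes tested.

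The 2 subunits of the trifunctional protein were read against each other within each calf, a ratio that no scaling of the library can alter. HADHA exceeded HADHB in every calf, by 1.17 to 1.90 times in CPM, with a mean ratio of 1.43 ± 0.201 (SD, n = 27). The 4 TRT0_H calves had a mean ratio of 1.25 and the 4 TRT6_H calves one of 1.32, both with little spread, from 1.21 to 1.36 over the 8 calves. The ratio was 1.35 ± 0.242 in TRT0_C, 1.57 ± 0.240 in TRT6_C, 1.48 ± 0.226 in TRT12_H and 1.55 ± 0.102 in TRT12_C. All groups with a mean above 1.4 overlapped with each other. The genes encode partners in 1 complex and lie next to each other in the bovine genome, and the differences of the ratio between groups were not tested.

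**Figure D3:**
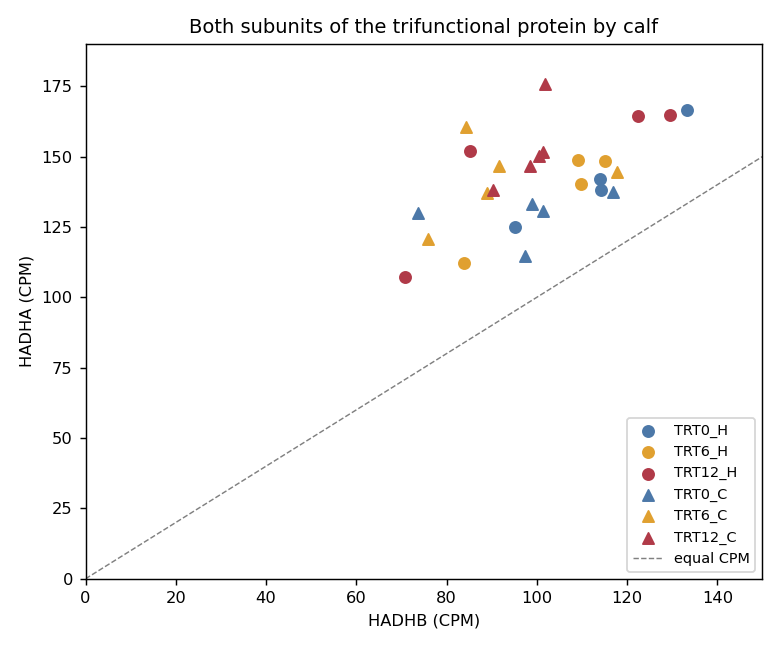
Level of HADHA (vertical axis, CPM) against HADHB (horizontal axis, CPM) in the 27 calves, coloured by treatment, with circles for H and triangles for C calves and a dashed line for equal CPM. Every calf lies above the line, with ratios from 1.17 to 1.90.

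Across calves the 7 genes varied together on the TMM scale. Pearson's r of their TMM-scaled log2 CPM was above 0 for all 21 pairs over the 27 calves, from 0.14 for CPT1A with ETFDH to 0.79 for HADHA with ACAA2, with a median of 0.53. HADHA with HADHB had an r of 0.78 and HADHA with CPT2 one of 0.77, so the 3 highest correlations all included HADHA. CPT1A had an r of 0.14 to 0.45 with the other members. The median was 0.62 after removal of group and lane means, and it was 0.43 within lane 1 and 0.76 within lane 2.

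This joint variation depended on the scaling. With log2(CPM + 1) and no TMM factor the median over the 21 pairs was 0.20 and 17 of them were above 0. HADHA with HADHB, HADHA with ACAA2 and HADHA with CPT2 kept an r of 0.59 each, whereas CPT1A with ETFDH had -0.24. The mean of the 7 genes, each scaled to a mean of 0 and a SD of 1, had an r of -0.82 with the TMM factor of the library, which ran from 0.886 to 1.15. The 27 points share a library and its TMM factor between all 7 genes, and the part of that factor in the joint variation was not tested.

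**Figure D4:**
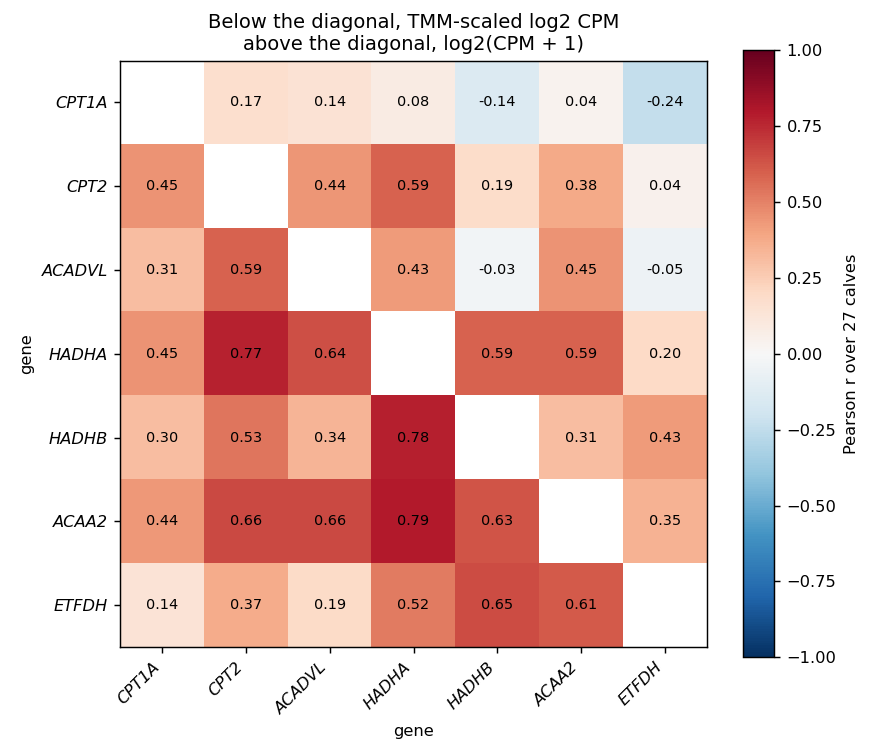
Pearson's r over 27 calves for each pair of the 7 genes (both axes), with TMM-scaled log2 CPM below the diagonal and log2(CPM + 1) above it. The median of the 21 pairs is 0.53 below the diagonal and 0.20 above it, and HADHA holds the highest values in both.

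On the TMM scale the mean of the 7 genes had a median of -0.83 in TRT0_C and 0.78 in TRT12_C, and the ranges, -1.22 to 0.14 and -0.68 to 0.92, overlapped. TRT0_H ranged from -0.50 to 1.30, TRT12_H from -0.99 to 1.203, TRT6_H from -0.16 to 0.50 and TRT6_C from -1.24 to 1.05. The calves with the highest and the lowest joint level of the 27 were a TRT0_H and a TRT6_C calf.

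Of the 3714 named genes tested, the 10 outside the fatty acid lists that followed the mean of the 7 genes most closely had an r of 0.82 to 0.86 over the 27 calves, where the median over all genes tested was -0.0168. They were CTNNA1 (0.86) and CTNNB1 (0.84), the catenins of epithelial junctions, ACO1 (0.86), the cytosolic aconitase, MYO1D (0.85), an unconventional myosin, GLUD1 (0.84), the mitochondrial glutamate dehydrogenase, and COX4I1 (0.84), a subunit of cytochrome c oxidase. BSG (0.83), a chaperone of lactate transporters, GUCA2A (0.83), the gut peptide guanylin, PTTG1IP (0.82) and NET1 (0.82) completed them. With log2(CPM + 1) their r was 0.56 for CTNNB1 to 0.75 for ACO1.

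The mean of the epithelial markers had an r of 0.80 with the mean of the 7 genes on the TMM scale and of 0.66 without TMM factors. EPCAM had an r of 0.80, CDH1 0.77 and LGALS4 0.70, and CA2, with 0.33, had the lowest of the 9. The summed epithelial level was 2427 to 3148 CPM in TRT0_C, 2536 to 3192 in TRT0_H, 2468 to 3500 in TRT6_C, 2911 to 3210 in TRT6_H, 2972 to 3557 in TRT12_C and 2339 to 4086 in TRT12_H. The mean of the 2 immune markers had an r of -0.45, and none was at 0 in any calf. PTPRC, the common leukocyte antigen CD45, had -0.60 and CSF1R -0.21. Within lanes 1 and 2 PTPRC had -0.83 and -0.18, and CSF1R had -0.63 and 0.51. The mean of the goblet markers had an r of 0.23, that of smooth muscle 0.29, of fibroblasts 0.045, of endothelium -0.096 and of enteric neurons and glia 0.21, and the adipocyte marker ADIPOQ had -0.0061. The part of the tissue's make-up in the joint level was not tested.

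**Figure D5:**
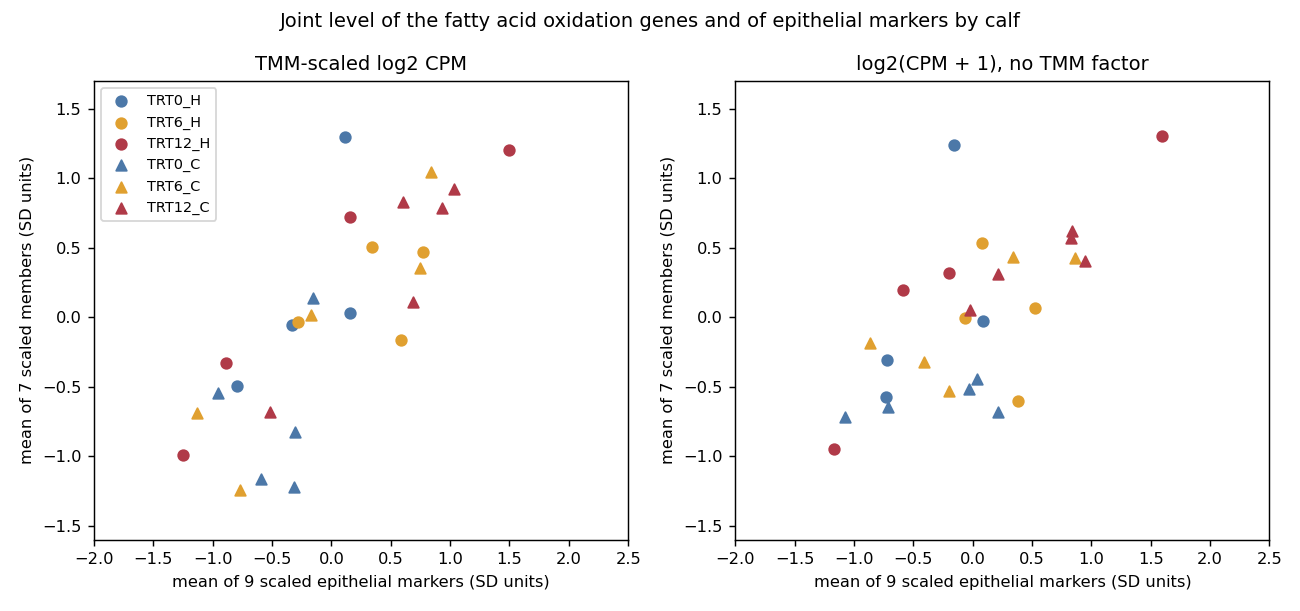
Mean of the 7 genes (vertical axis) against the mean of 9 epithelial markers (horizontal axis), each gene scaled to SD units, by calf, with TMM-scaled log2 CPM on the left and log2(CPM + 1) on the right. The points rise together in both panels, with an r of 0.80 on the left and 0.66 on the right.

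Of 57 further genes of fatty acid and ketone body metabolism, 22 had an identifier and all 22 were tested. None was called by edgeR in any of the 13 contrasts or in the interaction. In TRT12 vs. TRT0, 3 of the 22 had an unadjusted p under 0.05, all 3 higher, beside 5.19% of all genes tested that were past it and higher, and the 3 belong to fatty acid uptake and activation. ACSL5, an acyl-CoA synthetase of the gut, ranged from 80.7 over 87.7 to 94.4 CPM in TRT0 and from 92.0 over 104 to 164 CPM in TRT12, with a log2 fold change of 0.35 (SE 0.10, edgeR unadjusted p = 0.00159, adjusted p = 0.410). The fatty acid binding protein FABP3 ranged from 19.8 over 28.0 to 31.5 and from 23.6 over 35.4 to 49.8 CPM, with 0.53 (SE 0.16, edgeR unadjusted p = 0.00238). FABP1, the binding protein of liver and gut epithelium, ranged from 348 over 498 to 609 and from 399 over 654 to 945 CPM, with 0.47 (SE 0.17, edgeR unadjusted p = 0.00821).

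In TRT6 vs. TRT0, ACSL5 and FABP1 were the 2 of 22 genes with an unadjusted p under 0.05, with log2 fold changes of 0.22 and 0.40, beside 3.14% of all genes tested, and in TRT12 vs. TRT6 and C vs. H none was. In the interaction SLC27A2, a transporter and synthetase of very-long-chain fatty acids with a mean of 2.77 CPM, had an unadjusted p of 0.0363 in edgeR and 1 to 18 counts per calf.

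Within one parity, ACAT2 had the largest value of the 22 genes in TRT6_H vs. TRT0_H, with a log2 fold change of 0.82 (SE 0.29, edgeR unadjusted p = 0.00768, adjusted p = 0.999945), and FABP1 had 0.64 in TRT12_C vs. TRT0_C (SE 0.22, edgeR unadjusted p = 0.00696, adjusted p = 0.427). ECHS1, the short-chain enoyl-CoA hydratase of the spiral, had a log2 fold change of 0.25 in TRT12_C vs. TRT0_C (SE 0.19) and an r of 0.78 with the mean of the 7 genes. ETFB, a subunit of the flavoprotein that ETFDH oxidizes, had 0.40 (SE 0.17, edgeR unadjusted p = 0.0278) and an r of 0.75, whereas ETFDH itself had -0.0049. The 6 regulators, among them PPARG, PPARGC1A and RXRA, had r values of -0.26 to 0.33. In TRT12_C vs. TRT0_C the median log2 fold change of the 22 genes was 0.11, beside -0.0062 over all genes tested. There 5.04% of all genes tested were past an unadjusted p of 0.05 in edgeR and higher. Mean CPM was lower in TRT12_C than in TRT0_C for ACACA, PRKAA2 and HSD17B4, among others of the 22.

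Of the ketone body genes only OXCT1 and ACAT2 could be read, and the others were not analysed here. OXCT1, the transferase with which tissues use ketone bodies, had a mean of 86.2 ± 9.12 CPM (SD, n = 9) in the calves fed at 0 h, 88.2 ± 9.44 in those fed at 6 h and 94.6 ± 10.8 in those fed at 12 h. Its log2 fold change in TRT12 vs. TRT0 was 0.15 with a SE of 0.085 (edgeR unadjusted p = 0.0905). ACAT2, a cytosolic acetoacetyl-CoA thiolase, had 28.1 ± 8.71, 34.4 ± 15.3 and 34.8 ± 7.05 CPM, with 0.32 and a SE of 0.20 (edgeR unadjusted p = 0.117). Ketone body synthesis itself was therefore not measured by any of these genes.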

How the data were processed

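The deposited table gives raw, unnormalized counts for every Ensembl gene and calf. The authors mapped the reads with TopHat 2.1.1 to UMD 3.1, a build of the bovine genome, handled alignments in SAMtools 1.4 and obtained the counts from HTSeq, without reads assigned to more than 1 gene. The library kit does not keep strand and the strand setting of the counting is not given in the sources used here, so reads of overlapping genes, such as ACADVL and MIR324, cannot be told apart. Treatment came from the labels, the dam's parity from the sample sheet of the study, matched by calf number because the column names do not carry it, and the lane from the run field of the library name. Symbols were paired with identifiers by those parts of the study's gene tables that were used here, which pair 4046 identifiers with a symbol, and a symbol outside these parts was left out. The members and the lists were chosen with earlier results of these data known. Some pathway genes are not reported here.

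CPM was computed over the summed gene counts of each calf. Genes with a CPM of at least 1 in 5 of 9 calves of each treatment (13943) were tested with edgeR 4.0.16 in R 4.3.3 with TMM factors, with 1 coefficient per group (6 groups, 27 calves) and, for the overall contrasts, an additive model of treatment and parity. Adjusted p-values are Benjamini-Hochberg values over all genes tested. Correlations used log2 CPM with a prior count of 2 and carry no p. Genes named are the members, each member and contrast with an unadjusted p under 0.05, and the largest member of each overall contrast. The ketone body enzymes and the 10 genes most like the members are named too. So are further pathway genes with an unadjusted p under 0.05 in an overall contrast or the interaction. Other pathway genes, the markers and RGS2 were named after their values were seen. The alternatives were DESeq2 1.42.0, no TMM factors, no filter, lane as a covariate, the likelihood ratio test, the 10 highest genes left out and each calf left out. The fits were tested on simulated counts. Python 3.11.15 with numpy 2.4.6, pandas 2.3.3 and matplotlib 3.10.9 gave levels and figures.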

Additional observations from a re-analysis of the deposited data

Results flagged for a closer look

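Of 63 sets of a gene and a group of calves checked for a calf far from the others, 2 were found, and chance gives about 1 in 20. In TRT6, 1 H calf had 129 CPM of CPT1A (128.6), the highest of the 9 calves, where the next calf had 112 and the lowest 97.0 CPM. In TRT6_C, 1 calf had 103 CPM of ACADVL (103.1), the lowest of the 5 calves, where the others had 122 to 127 CPM, and its library was the smallest of all with 1163791 counts.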

How the results depend on the processing

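No member was called under any of the 33 alternatives, except that DESeq2 gave the members no adjusted p in TRT12 vs. TRT0 and no test of the interaction, where none could be called. The median over the members moved by less than the SD of a member's log2 CPM within groups and lanes (median 0.196). That SD is not the error of the median, so it does not show that the median was stable. With 1 calf left out the median over the members changed sign in 4 contrasts. It ran from -0.094 to 0.052 in TRT6_H vs. TRT0_H, -0.072 to 0.11 in TRT12_H vs. TRT0_H, -0.074 to 0.13 in TRT12_H vs. TRT6_H and -0.050 to 0.14 in TRT12_C vs. TRT12_H. It ranged from 0.013 to 0.14 in TRT12 vs. TRT6, 0.043 to 0.21 in TRT12_C vs. TRT6_C, 0.022 to 0.13 in TRT6 vs. TRT0 and 0.25 to 0.39 in TRT12_C vs. TRT0_C. Counts of all genes called, 0 in each contrast and 1 in the interaction, did move. With lane as a covariate they were 1 in TRT6 vs. TRT0, 1 in TRT12 vs. TRT0, 4 in TRT12_C vs. TRT0_C and 0 in the interaction. DESeq2 called 51 in TRT12 vs. TRT0, 4 in TRT12_C vs. TRT0_C, 2 in TRT6_C vs. TRT6_H and 1 each in C vs. H, TRT12_H vs. TRT0_H, TRT6_C vs. TRT0_C and TRT0_C vs. TRT0_H. Without the filter 3 were called in C vs. H and 1 each in TRT12 vs. TRT6, TRT12_C vs. TRT0_C, TRT12_C vs. TRT6_C and TRT12_C vs. TRT12_H. The likelihood ratio test called 2 in C vs. H, TRT12_C vs. TRT0_C and the interaction, and 1 in TRT6_H vs. TRT0_H, TRT6_C vs. TRT0_C, TRT0_C vs. TRT0_H and TRT6_C vs. TRT6_H. Leaving out 1 calf gave 0 to 1 in TRT12 vs. TRT0, C vs. H, TRT6_C vs. TRT6_H and the interaction. The causes were not tested.

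Signs turned for small values. Without TMM factors the log2 fold change of ETFDH in TRT6 vs. TRT0 was -0.0077, those of ACADVL, CPT2 and CPT1A in C vs. H were 0.016, 0.043 and 0.0020, and that of CPT1A in TRT0_C vs. TRT0_H was 0.0029. ETFDH in TRT12_C vs. TRT0_C was 0.13 with lane as a covariate and 0.0093 without the 10 highest genes. The median r over the 21 pairs was 0.20 with log2(CPM + 1). Of 1188 member values with 1 calf left out, 43 changed sign. ETFDH ranged from -0.047 to 0.053 in TRT6 vs. TRT0, from -0.085 to 0.011 in TRT12 vs. TRT0, from -0.093 to 0.013 in TRT12 vs. TRT6 and from -0.088 to 0.093 in TRT12_C vs. TRT0_C. HADHB ranged from -0.099 to 0.037 in TRT12 vs. TRT0, from -0.0061 to 0.13 in TRT12 vs. TRT6 and from -0.028 to 0.21 in TRT12_C vs. TRT0_C. CPT1A ranged from -0.058 to 0.019 in TRT12 vs. TRT6 and from -0.20 to 0.0093 in TRT0_C vs. TRT0_H, ACADVL from -0.053 to 0.0079 and CPT2 from -0.043 to 0.024 in C vs. H. No paired analysis applied, because each calf was assigned to 1 treatment and gave 1 library. With 4 or 5 calves a group and 40 to 693 counts per gene, differences well above the SE, 0.12 to 0.19 in TRT12_C vs. TRT0_C, were not called. ACADVL, with a log2 fold change of 0.36 and a SE of 0.12 there, had an adjusted p of 0.427 in edgeR. The lack of calls therefore does not show that such differences were absent.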
